A study of Mus musculus with 6 samples.

Results

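The nuclear genes for the subunits of oxidative phosphorylation were followed in mouse tail skin. Members were all gene symbols of the count table beginning with Nduf and a, b, c, s or v, with Uqcr, with Cox and a digit from 4 to 8 or with Atp5, and the symbols Sdha to Sdhd, Cyc1 and Cycs, unless the table described them as a pseudogene. This gave 99 of 18180 genes. RNA had been sequenced from 6 libraries of tail skin, and all 6 came from Mettl3fl/fl mice, in which both alleles of Mettl3 are floxed. The 3 control libraries, of genotype Mettl3fl/fl;K14creERT2-/-, came from normal tails. The other 3, labelled cKO, carried K14creERT2 (Mettl3fl/fl;K14creERT2+/-), a tamoxifen-activated Cre recombinase driven by the keratin 14 promoter of basal keratinocytes, and came from tail areas that had become inflamed on their own. Per the series' design text, tamoxifen was injected on 5 days and the skin was sampled 4 weeks later. The whole skin was sampled, so cells without active Cre were included. Genotype and inflamed tissue went together, and their effects cannot be told apart. The labels give no age, sex or strain, and leave unsaid whether each library is an animal of its own, so the p-values reflect how these libraries spread, and that spread may be technical.

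Oxidative phosphorylation takes place in the inner mitochondrial membrane. Complex I accepts electrons from NADH and complex II from succinate, ubiquinone carries them to complex III, cytochrome c carries them on to complex IV, and complex IV passes them to oxygen. Complexes I, III and IV pump protons, and complex V, the ATP synthase, lets the protons flow back to make ATP. Most subunits are encoded in the nucleus, and a few by mitochondrial DNA. Epidermal keratinocytes contain active mitochondria but lose them as they cornify, and the epidermis also draws on glycolysis.

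Library totals ran from 35855880 to 37043849 counts. Levels below are CPM, counts scaled by the TMM-adjusted library total. A level with ± is a group's mean and SD (n = 3), and differences are log2 fold changes of the libraries labelled cKO over control. Calls of higher or lower rest on an edgeR adjusted p under 0.05 over the 15061 genes that passed the low-count filter. The keratin genes Krt5, Krt14 and Krt10 and the dermal collagen gene Col1a1 were abundant in all 6 libraries, at 2329 CPM or more. Counts of Mettl3 itself were 440, 389 and 337 for the controls but 569, 512 and 540 for the cKO label, which goes against the label, and the counts cover the whole gene rather than the floxed part. Transcripts of cell type markers differed as well. Over all genes tested, 30.8% were higher and 30.6% lower. All 11 tested neutrophil markers were higher, with a summed level of 225 to 238 CPM in control and 3927 to 3985 CPM in cKO-labelled libraries, and 8 of 10 sebaceous gland markers were lower (6846 to 6885 CPM in control and 3121 to 3142 CPM in cKO-labelled libraries). Of 13 adipocyte markers, 12 were lower (1245 to 1256 CPM in control and 855 to 862 CPM in cKO-labelled libraries), all 13 monocyte and macrophage markers were higher (894 to 916 CPM in control and 1316 to 1353 CPM in cKO-labelled libraries), and 7 of 8 fibroblast markers were higher and 1 lower (11296 to 11406 CPM in control and 16395 to 16446 CPM in cKO-labelled libraries). Of 8 basal keratinocyte markers, 3 were higher and 5 lower, with a median log2 fold change of -0.21. Their sum was higher (9941 to 10144 CPM in control and 13166 to 13472 CPM in cKO-labelled libraries) through Krt14, which went from 4157 ± 89.5 to 7687 ± 134 CPM. In bulk tissue, fewer cells of a type and less RNA per cell cannot be told apart, and the part of these shifts in the results below was not tested.

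Transcripts of complexes III and V, of the common subunits of complex IV and of cytochrome c were mostly higher in the libraries labelled cKO, and those of complex I went both ways. Of the 99 members 98 were tested, and 64 were called, against 61.4% of all genes tested. Of these 47 were higher and 17 lower, where 30.8% of all genes tested were higher and 30.6% lower. The sums over all members were 8985, 8873 and 8984 CPM in control and 9899, 9922 and 9869 CPM in cKO-labelled libraries, so the groups did not overlap. Member transcripts made up 0.887% ± 0.00624 of the library total in control and 0.998% ± 0.00307 in cKO-labelled libraries. The median log2 fold change was 0.11 over the members and 0.0021 over all genes tested. The complexes are described side by side, and the differences between them were not tested.

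These differences were small. Of the 98 members, 26 were called and differed by more than 1.2-fold, against 46.7% of all genes, and 4 by more than 1.5-fold, against 22.7%. The groups did not overlap in 67 of the 98, where 64.9% of all genes did not. Within a group the libraries were nearly alike: the median coefficient of variation of 80 common subunit genes was 2.71% in control and 2.18% in cKO-labelled libraries, and counting error alone gives 1.74% and 1.7%. With an assumed biological coefficient of variation of 20%, as separate animals might show, 4 members passed (Ndufa4, Ndufaf1, Ndufaf4 and Ndufaf6, all higher), where 22.3% of all genes passed.

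**Figure D1:**
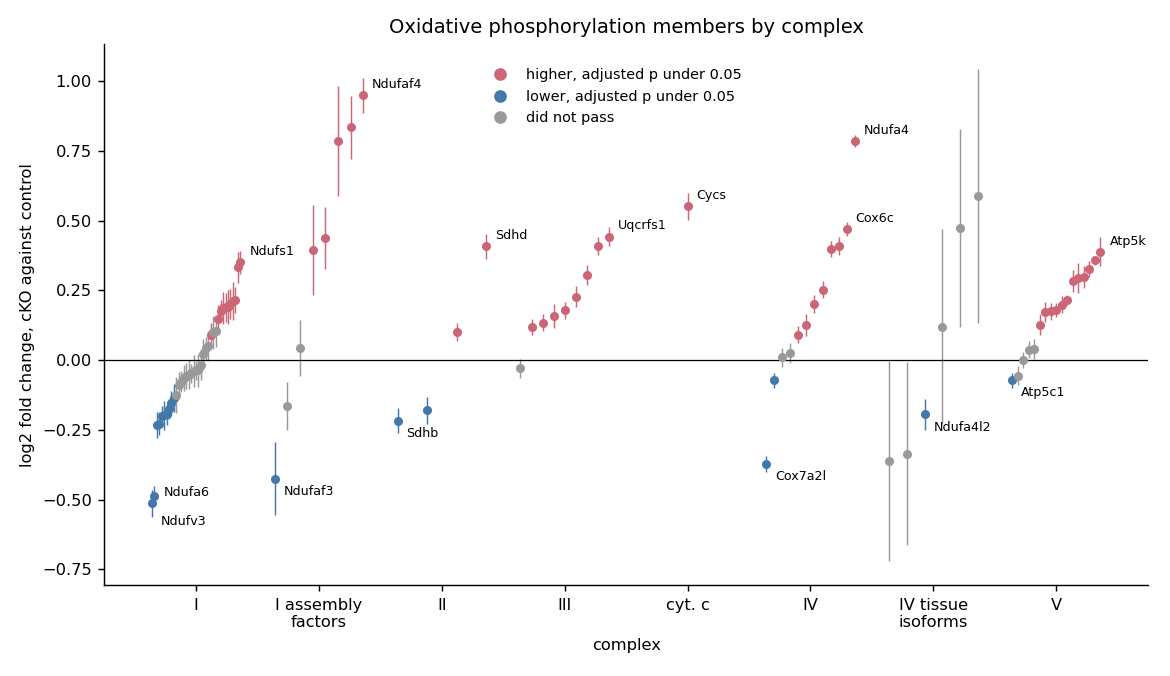
Log2 fold change of each tested member (y axis) by complex (x axis), with bars for the standard error of the fit and colour for the call. Complex III, cytochrome c, complex IV and complex V sit mostly above 0, complex I lies on both sides from -0.51 to 0.35, and 4 scarce copies of complex I genes are not drawn.

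Promoter sequence was examined because the nuclear respiratory factors are known to bind many of these genes. RefSeq windows (GRCm38.p6, 250 bases before to 50 after the start) were found for 78 of the 99 members, in 83 windows. Each window was searched on both strands for TGCGCA (only a part of the NRF1 site), CCGGAAG (the ETS site that GABP binds), AAGATGG (YY1) and AAGGTCA (estrogen-related receptors). A CCGGAAG can share its last 3 letters with the start of an AAGATGG. The NRF1 core TGCGCA was in 20 of the 83 windows (24.1%) and in 7.76% of all 32851 windows in the table. CCGGAAG was in 22.9% against 8.86%, AAGATGG in 14.5% against 6.34%, and AAGGTCA in 9.64% against 4.72%. These shares are a description, not adjusted for base composition. Among commonly expressed subunit genes, any of the first 3 motifs was in 20 of 37 windows of members called higher. It was in 4 of 13 of members called lower and 14 of 22 of members that did not pass. These windows belong to 35, 11 and 21 genes, so some genes are counted with more than 1 window.

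The promoters of 5 members whose values follow are shown, in the direction of the gene, with the motifs in capitals and a match on the opposite strand as its reverse complement (CTTCCGG or TGACCTT): Ndufa4, the subunit with the largest rise, Ndufaf4, the assembly factor with the largest rise, Cox6a1 and Sdhd, which rose and hold more than 1 kind of motif, and Ndufa6, which fell.
Ndufa4, chr6:11907401-11907700, minus strand: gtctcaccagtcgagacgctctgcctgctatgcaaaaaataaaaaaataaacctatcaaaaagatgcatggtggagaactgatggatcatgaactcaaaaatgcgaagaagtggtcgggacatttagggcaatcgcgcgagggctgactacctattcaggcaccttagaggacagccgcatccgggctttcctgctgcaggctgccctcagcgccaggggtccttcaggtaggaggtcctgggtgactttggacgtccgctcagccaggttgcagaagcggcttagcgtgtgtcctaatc
Ndufaf4, chr4:24897833-24898132, plus strand: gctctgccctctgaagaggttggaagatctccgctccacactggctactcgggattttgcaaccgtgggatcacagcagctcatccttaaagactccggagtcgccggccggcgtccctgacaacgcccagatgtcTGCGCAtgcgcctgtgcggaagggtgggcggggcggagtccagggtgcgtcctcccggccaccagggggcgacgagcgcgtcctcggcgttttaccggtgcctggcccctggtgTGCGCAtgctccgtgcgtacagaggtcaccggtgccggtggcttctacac
Cox6a1, chr5:115348909-115349208, minus strand: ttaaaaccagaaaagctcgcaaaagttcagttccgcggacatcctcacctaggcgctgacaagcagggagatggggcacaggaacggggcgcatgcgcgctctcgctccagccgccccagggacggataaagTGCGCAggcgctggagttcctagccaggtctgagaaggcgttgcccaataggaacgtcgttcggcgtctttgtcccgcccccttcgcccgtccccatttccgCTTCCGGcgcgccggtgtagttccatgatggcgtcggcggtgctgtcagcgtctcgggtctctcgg
Sdhd, chr9:50603800-50604099, minus strand: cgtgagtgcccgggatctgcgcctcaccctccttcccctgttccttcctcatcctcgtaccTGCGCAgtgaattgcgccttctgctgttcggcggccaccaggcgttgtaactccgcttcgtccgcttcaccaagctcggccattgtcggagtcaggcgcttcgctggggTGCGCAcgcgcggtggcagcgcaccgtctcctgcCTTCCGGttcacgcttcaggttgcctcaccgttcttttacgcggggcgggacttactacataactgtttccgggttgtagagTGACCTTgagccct
Ndufa6, chr15:82354242-82354541, minus strand: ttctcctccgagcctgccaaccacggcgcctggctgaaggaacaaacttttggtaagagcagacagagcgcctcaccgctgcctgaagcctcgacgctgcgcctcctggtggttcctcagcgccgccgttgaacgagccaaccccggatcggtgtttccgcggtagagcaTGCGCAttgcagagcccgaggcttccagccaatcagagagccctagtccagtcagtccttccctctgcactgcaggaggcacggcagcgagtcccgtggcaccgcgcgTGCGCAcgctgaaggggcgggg
Ndufa4 holds none of the 4 motifs in this window. Ndufa6, which fell, and Ndufaf4, which rose, each hold TGCGCA at 2 places, so the motif was present in members that moved in opposite directions. A match is a stretch of letters and does not show that a factor was bound in these tissues.

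Complex I, the NADH dehydrogenase, had 37 subunit genes, of which 11 were higher, 10 lower and 16 did not pass (median log2 fold change -0.04), no larger a share in either direction than over all genes. Their summed level was 2554, 2504 and 2542 CPM in control and 2457, 2480.0 and 2447 CPM in cKO-labelled libraries, lower in each library labelled cKO than in any control library. Scaled by library totals in place of TMM, the groups overlapped (2530.2, 2484 and 2523 against 2474, 2501 and 2466 CPM). The absence of overlap in this sum therefore rests on the scaling. The genes Ndufa4 and Ndufa4l2 carry complex I names, but the Ndufa4 protein is now counted as a subunit of complex IV and both are described there. With them, complex I as named would have 12 higher and 11 lower of 39. Members are grouped below by the textbook position of their protein in the complex, a grouping made after the values were seen.

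Beside 30.8% higher and 30.6% lower over all genes tested, 4 of the 10 members grouped with the module that binds NADH rose and 4 fell. This module, at the tip of the matrix arm, held the largest fall and the largest rise of the complex. Ndufv3, a small accessory subunit there, had 69.5, 67.4 and 72.2 CPM in the control libraries and 49.5, 47.8 and 49.3 CPM in the libraries labelled cKO. It fell 1.43-fold (log2 fold change -0.51, SE 0.0487, adjusted p = 3.63e-15), and all 3 libraries labelled cKO lay below all control libraries. Ndufa6, an accessory subunit that binds the mitochondrial acyl carrier protein, had 135, 125 and 131 CPM in the control libraries and 90.8, 95.4 and 92.8 CPM in the libraries labelled cKO, again without overlap. It fell 1.4-fold (log2 fold change -0.49, SE 0.0358, adjusted p = 3.48e-20). In the opposite direction, Ndufs1, the largest iron-sulfur subunit of this module, had 74.7, 73.1 and 78.1 CPM in the control libraries and 93.6, 100.04 and 94.2 CPM in the libraries labelled cKO. It rose 1.27-fold (log2 fold change 0.35, SE 0.0409, adjusted p = 1.01e-11). The accessory subunit gene Ndufa12 had 37.6, 39.8 and 38.9 CPM against 49.4, 47.995 and 49.2 CPM and rose 1.26-fold (adjusted p = 3.18e-07). Ndufs1 and Ndufv3 had the largest rise and the largest fall of the complex, so the ratio between them had to shift. Per gene length, the FPKM of Ndufs1 was 0.639, 0.646 and 0.643 times that of Ndufv3 in control and 1.13, 1.25 and 1.14 times in the libraries labelled cKO. Ndufs4, an accessory subunit, had 45.5, 42.5 and 41.2 CPM against 49.96, 50.996 and 47.7 CPM and rose 1.15-fold. Ndufa7 had 93.6, 92.1 and 94.4 CPM against 82.004, 76.5 and 80.7 CPM and fell 1.17-fold. Ndufs6 rose and Ndufa2 fell as well (log2 fold changes 0.19 and -0.16). Ndufv1, which holds the flavin that takes electrons from NADH, went from 94.8 ± 3.7 to 89.9 ± 1.47 CPM without passing the test (adjusted p = 0.081), though it passed without control replicate 2 (adjusted p = 0.0289). Its neighbour Ndufv2 did not pass either (log2 fold change -0.05, adjusted p = 0.23).

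In the module that passes electrons to ubiquinone, 2 of 6 members rose and 1 fell, with log2 fold changes from -0.20 to 0.15. Over all genes tested, 30.8% were higher and 30.6% lower. The core subunit Ndufs3 fell 1.15-fold (from 58.8 ± 0.699 to 51.3 ± 2.83 CPM, adjusted p = 0.000532), and Ndufs8, which carries iron-sulfur clusters, rose 1.11-fold (from 49.8 ± 0.689 to 55.2 ± 0.56 CPM, adjusted p = 0.0093). Ndufa9 was called higher at the edge of the threshold (log2 fold change 0.09, SE 0.0405, adjusted p = 0.0459), and its adjusted p was 0.176 without control replicate 2, 0.056 without control replicate 3, 0.0659 without cKO replicate 1 and 0.114 without cKO replicate 3. Ndufs7 and Ndufa5 had log2 fold changes of -0.04 and -0.02 and did not pass.

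In the membrane arm, whose subunits surround the proton pumps, calls went both ways. Of the 11 Ndufb members of its distal portion, 3 fell and 1 rose, where 30.6% of all genes tested were lower and 30.8% higher. Ndufb10 had 73.7, 68.2 and 72.9 CPM against 60.96, 63.3 and 58.7 CPM and fell 1.17-fold (adjusted p = 1.34e-05), and Ndufb11 fell 1.13-fold (adjusted p = 1.18e-05). Ndufb9 had 122, 117 and 119 CPM against 98.3, 112 and 101 CPM and fell 1.15-fold (adjusted p = 3.45e-06). Ndufb8 rose 1.13-fold (from 87.5 ± 2.8 to 98.8 ± 3.6 CPM, adjusted p = 6.99e-05). The other 7, Ndufb1 to Ndufb7, had log2 fold changes from -0.09 to 0.10 and did not pass, although Ndufb6 did with library totals (adjusted p = 0.0383) or upper-quartile factors (adjusted p = 0.0299) in place of TMM scaling. Of 9 members in the proximal portion, 3 rose and 2 fell, beside the same shares over all genes tested. Ndufc2 had 63.5, 58.6 and 61.7 CPM against 72.2, 68.9 and 72.2 CPM and Ndufc1 had 26.8, 29.03 and 29.5 CPM against 33.3, 32.4 and 33.2 CPM, and each rose 1.16-fold. Ndufa1 rose as well (log2 fold change 0.19), and Ndufa10 and Ndufa13 fell (-0.19 and -0.14). The call of Ndufa1 was lost without cKO replicate 3 (adjusted p = 0.0696) and that of Ndufa13 without control replicate 2 (adjusted p = 0.0755) and with upper-quartile factors (adjusted p = 0.0522). Ndufab1, the acyl carrier protein that sits in both arms, rose 1.14-fold (from 35.1 ± 1.88 to 40.1 ± 1.48 CPM), with an adjusted p of 0.0514 without control replicate 3.

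The pattern also matched 4 scarce copies of complex I genes, Ndufab1-ps, Ndufb4b, Ndufb4c and Ndufs6b, of which 3 carry no description in the table and the first is a pseudogene by its name. Their means lay between 0.348 and 2.5 CPM and none passed the test by edgeR. The unadjusted p was under 0.05 for 1 of them by edgeR, and none passed by DESeq2 and none by limma-voom. Ndufab1-ps passed without control replicate 2 (adjusted p = 0.0211). Many subunit genes have processed pseudogenes of near-identical sequence, and how reads that fit several places were counted is not given in the sources used here, so small differences of single genes are uncertain to that extent.

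Complex II, succinate dehydrogenase, is also an enzyme of the citric acid cycle and is encoded wholly in the nucleus. Of its 4 genes 2 rose and 2 fell, and the groups did not overlap in any of them. Of all genes tested, 61.4% were called and 64.9% did not overlap. Sdha, the flavoprotein that oxidises succinate, had 117, 119 and 120.4 CPM in the control libraries and 127, 124 and 131 CPM in the libraries labelled cKO and rose 1.07-fold (log2 fold change 0.10, SE 0.0334, adjusted p = 0.00676). Sdhb, the iron-sulfur subunit that takes electrons from Sdha, had 74.1, 77.5 and 78.8 CPM in the control libraries and 66.2, 67.8 and 64.1 CPM in the libraries labelled cKO and fell 1.16-fold (log2 fold change -0.22, SE 0.0444, adjusted p = 1.89e-05). The membrane anchors, which hold the ubiquinone site between them, also moved apart. Sdhc had 60.5, 62.2 and 63.6 CPM against 54.1, 54.6 and 55.8 CPM and fell 1.13-fold (adjusted p = 0.000973), while Sdhd, whose promoter above holds 3 kinds of motif, had 60.6, 58.3 and 61.6 CPM against 81.7, 79.3 and 78.6 CPM and rose 1.33-fold (adjusted p = 9.26e-13). The FPKM of Sdhd was 0.658 ± 0.0277 times that of Sdhb in control and 1.02 ± 0.0301 times in cKO-labelled libraries (SD, n = 3). This ratio sets the largest rise of the complex over its largest fall, so it had to shift.

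Complex III, the cytochrome bc1 complex, rose in 8 of its 9 nuclear genes (median log2 fold change 0.18), where 30.8% of all genes tested were higher. The summed level of the complex was 1023, 1026 and 1047 CPM in control and 1186, 1200.2 and 1198 CPM in cKO-labelled libraries. Uqcrfs1, the Rieske iron-sulfur protein that takes an electron from ubiquinol, had 93.7, 97.1 and 98.6 CPM in the control libraries and 126, 133 and 133 CPM in the libraries labelled cKO. It rose 1.36-fold (log2 fold change 0.44, SE 0.0352, adjusted p = 1.33e-18). Cyc1, cytochrome c1, which hands the electron to cytochrome c, had 84.03, 81.96 and 82.3 CPM against 96.5, 97.7 and 96.5 CPM and rose 1.17-fold (adjusted p = 4.73e-07). Among the small subunits, Uqcrq had 117, 119 and 121 CPM against 158, 158 and 157 CPM and rose 1.33-fold (adjusted p = 1.86e-19). Uqcr10 had 100.43, 99.5 and 98.1 CPM against 120.3, 125 and 123 CPM and rose 1.24-fold. The core proteins Uqcrc1 and Uqcrc2 form the matrix part of the complex. Uqcrc1 had 131, 128 and 135 CPM against 148, 149 and 148 CPM and rose 1.13-fold, and Uqcrc2, Uqcr11 and Uqcrh rose by smaller factors, with log2 fold changes from 0.12 to 0.16. Uqcrb was the member that did not pass (from 123 ± 6.0 to 120.4 ± 2.72 CPM, adjusted p = 0.47).

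Cytochrome c, the soluble carrier between complexes III and IV that also triggers apoptosis when it leaves the mitochondrion, is encoded by Cycs. Its level was 52.01, 54.7 and 55.4 CPM in the control libraries and 82.9, 74.95 and 79.6 CPM in the libraries labelled cKO. It rose 1.46-fold (log2 fold change 0.55, SE 0.047, adjusted p = 3.49e-17), without overlap between the groups.

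Complex IV, cytochrome c oxidase, had 11 commonly expressed nuclear genes, of which 8 rose, 1 fell and 2 did not pass. Beside these counts stand 30.8% higher and 30.6% lower over all genes tested. The largest difference of any subunit gene was that of Ndufa4 (NCBI gene 17992), whose promoter above held none of the motifs. It had 266, 267 and 253 CPM in the control libraries and 452, 448 and 453 CPM in the libraries labelled cKO. It rose 1.72-fold (log2 fold change 0.78, SE 0.0215, adjusted p = 1.86e-45), and it passed with an assumed biological coefficient of variation of 20% as well (adjusted p = 0.00652). The 3 genes of subunits VIa, VIb and VIc rose by similar factors. Cox6c had 191, 188 and 187 CPM against 264, 261 and 260.0 CPM and rose 1.38-fold (adjusted p = 1.19e-27). Cox6a1 had 109, 109 and 107 CPM against 146, 142 and 144 CPM and rose 1.33-fold, and Cox6b1, which faces the cytochrome c docking side, had 152, 147 and 144 CPM against 195, 197 and 193 CPM and rose 1.32-fold. Cox7c had 138, 136 and 129 CPM against 159, 159.8 and 161 CPM and rose 1.19-fold. Cox7b, Cox5a and Cox7a2 rose 1.15-fold, 1.09-fold and 1.06-fold, the last with an adjusted p of 0.0623 without cKO replicate 2. Cox4i1, which takes part in the regulation of the enzyme by ATP, had 236, 226 and 228 CPM against 219.8, 214 and 223 CPM and fell 1.05-fold (log2 fold change -0.07, SE 0.0256, adjusted p = 0.0109). That call was lost without control replicate 1 (adjusted p = 0.105), without cKO replicate 2 (adjusted p = 0.109) and with library totals or upper-quartile factors in place of TMM scaling (adjusted p = 0.0859 and 0.135). Cox5b and Cox8a did not pass (adjusted p = 0.564 and 0.81).

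Cox7a2l, which encodes the factor that joins complexes III and IV in supercomplexes, went the other way. It had 172, 178 and 175 CPM in the control libraries and 134, 134 and 138 CPM in the libraries labelled cKO. It fell 1.29-fold (log2 fold change -0.37, SE 0.0297, adjusted p = 1.75e-18), with all libraries labelled cKO below all control libraries. Its FPKM was 0.807 ± 0.0156 times that of its relative Cox7a2 in control and 0.586 ± 0.0255 times in cKO-labelled libraries (SD, n = 3).

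**Figure D2:**
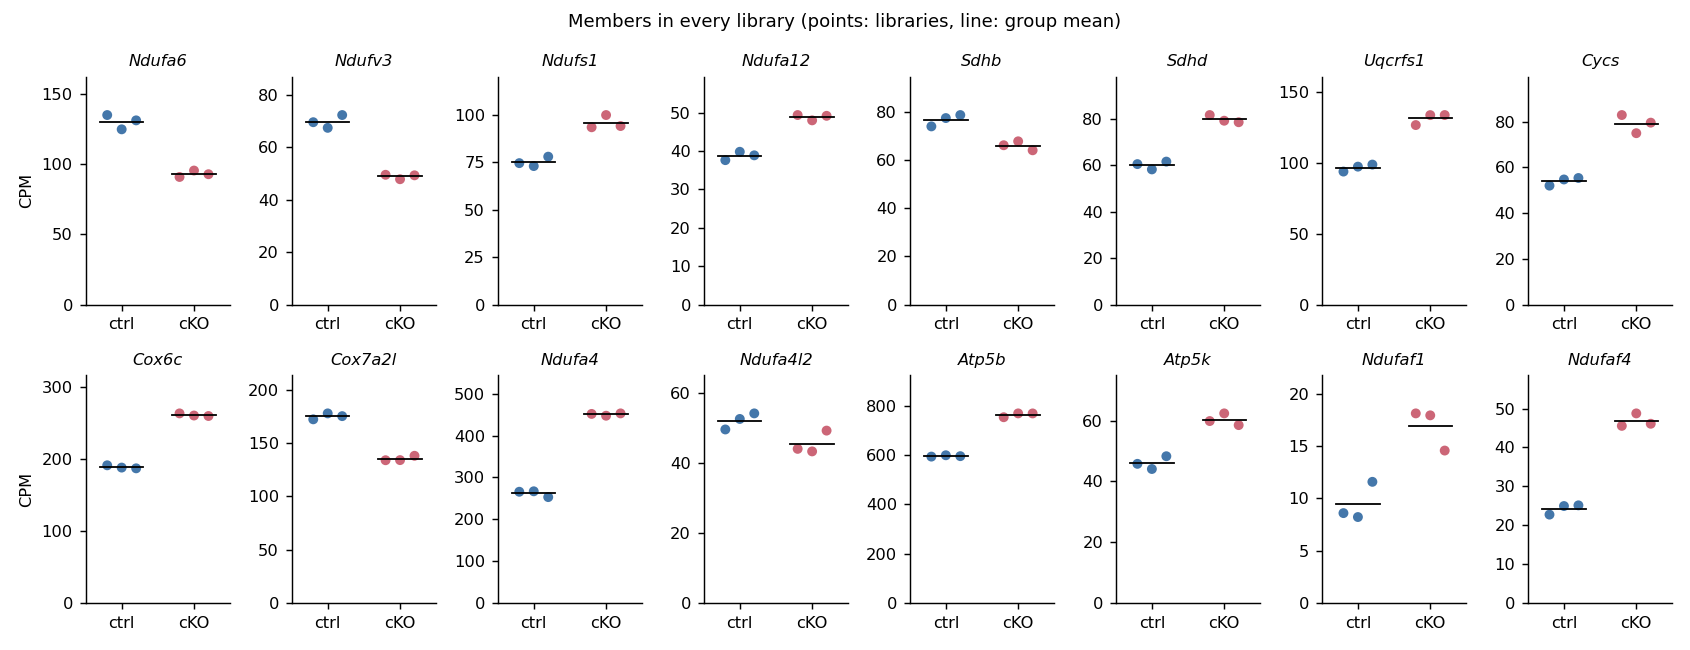
CPM of 16 members (y axis, from 0) in the 3 control and the 3 cKO-labelled libraries (points, with a line at each group mean). Ndufa6, Ndufv3, Sdhb, Cox7a2l and Ndufa4l2 are lower and the other 11 higher in the libraries labelled cKO. In none of the 16 do the groups overlap, and they were drawn from members chosen for that. Among all 98 members tested the groups do not overlap in 67, and 64.9% of all genes tested do not. The gap is smallest for Ndufa4l2, which overlaps when scaled by library totals.

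Several complex IV subunits have a second gene used in muscle, lung, testis or low oxygen. Ndufa4l2, a relative of Ndufa4 known to be induced by hypoxia, was the one abundant tissue form, the others having means of 1.78 CPM or less. It had 49.6, 52.6 and 54.2 CPM in the control libraries and 44.1, 43.3 and 49.3 CPM in the libraries labelled cKO. It fell 1.14-fold (log2 fold change -0.19, SE 0.0551, adjusted p = 0.0016), with the lowest control library just above the highest library labelled cKO. Scaled by library totals these 2 libraries changed places (49.2 and 49.7 CPM). Per length, Ndufa4l2 made up 7.92% ± 0.509 of the pair's FPKM in control and 4.18% ± 0.265 in cKO-labelled libraries (SD, n = 3).

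The muscle-type genes Cox6a2, Cox7a1 and Cox8b, the lung-type Cox4i2 and the testis-type Cox6b2 had between 20 and 75 counts in every library. Cox4i2, for example, had 56, 64 and 75 counts in control and 33, 63 and 58 with the cKO label, and Cox6b2 had 20, 20 and 34 against 33, 40 and 38 counts. None of these 5 passed the test by edgeR, with log2 fold changes from -0.36 to 0.59. Each gene made up 1.69% or less of its family's FPKM on average in either group. By edgeR none of the 5 had an unadjusted p under 0.05, none passed by DESeq2 and none by limma-voom, and Cox6b2 passed by limma on log2(FPKM + 1) (adjusted p = 0.0443). Cox8c, the other testis-type gene, had 1 count in 6 libraries and was not tested. Skeletal muscle markers were scarce, with a summed level of 31.7, 23.5 and 28.7 CPM in control and 33.3, 57.4 and 34.6 CPM in cKO-labelled libraries. Of 13 tested, 3 were higher, where 30.8% of all genes tested were.

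**Figure D3:**
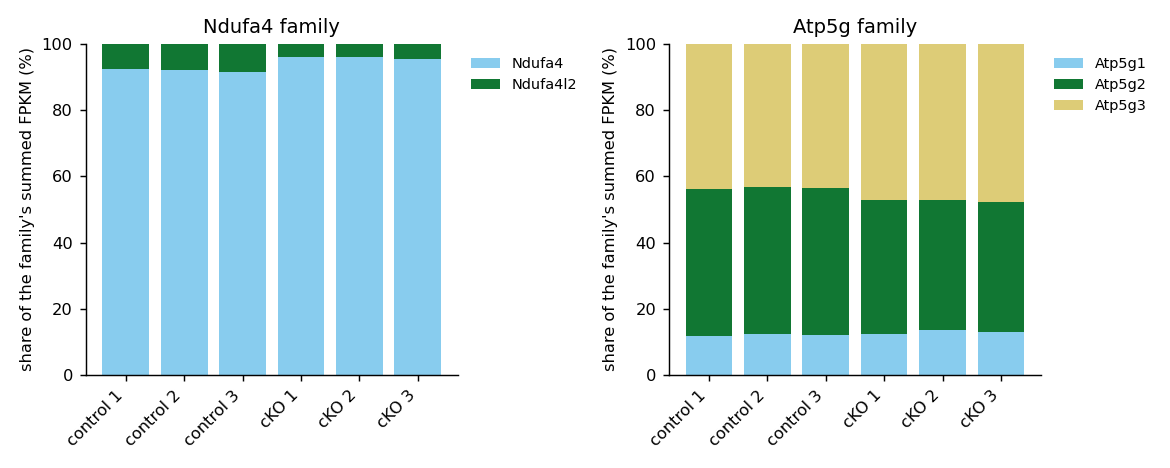
Share of each gene in the summed FPKM of its family (y axis, percent) in every library, for Ndufa4 with Ndufa4l2 (left) and for the 3 genes of ATP synthase subunit c (right). The share of Ndufa4l2 is 4.48% or less in the libraries labelled cKO and 7.45% or more in control, and the share of Atp5g2 is lower in all 3 libraries labelled cKO.

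Complex V, the ATP synthase, had 17 nuclear genes, of which 12 rose, 1 fell and 4 did not pass (median log2 fold change 0.18). Beside these counts stand 30.8% higher and 30.6% lower over all genes tested. The summed level of the complex was 3010.1, 2968 and 2991 CPM in control and 3429.7, 3438 and 3406 CPM in cKO-labelled libraries. In the catalytic F1 head, Atp5b, the beta subunit that holds the active sites, had 594, 599 and 596 CPM in the control libraries and 754, 769 and 769 CPM in the libraries labelled cKO and rose 1.28-fold (log2 fold change 0.36, SE 0.0164, adjusted p = 1.61e-31). Atp5a1, the alpha subunit that alternates with it in the head, rose 1.16-fold (from 530.3 ± 4.21 to 616 ± 7.72 CPM, adjusted p = 2.78e-18). The subunits of the central stalk moved less. Atp5d and Atp5e rose 1.15-fold and 1.09-fold, and Atp5c1, the gamma subunit that turns inside the head, had 199.8, 192 and 198 CPM against 189.6, 185 and 187 CPM and fell 1.05-fold (log2 fold change -0.07, SE 0.0271, adjusted p = 0.0176). That call was lost without any of control replicates 1 and 3 and cKO replicates 2 and 3 (adjusted p from 0.0513 to 0.0978) and with library totals or upper-quartile factors in place of TMM scaling (adjusted p = 0.114 and 0.168).

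In the membrane part, 3 genes encode the same mature subunit c of the rotor ring with different import sequences. Atp5g3 had 155, 147 and 148 CPM against 188, 191 and 185 CPM and rose 1.25-fold (adjusted p = 2.08e-16), Atp5g1 had 44.8, 44.4 and 44.2 CPM against 52.4, 58.4 and 52.99 CPM and rose 1.23-fold (adjusted p = 1.92e-06), and Atp5g2 did not pass (from 106 ± 2.57 to 109 ± 2.99 CPM, adjusted p = 0.326). Atp5g2 made up 44.4% ± 0.145 of the family's FPKM in control and 39.7% ± 0.609 in cKO-labelled libraries (SD, n = 3). Among the 5 small membrane subunits, 4 rose. Atp5k, subunit e, which helps the synthase pair into dimers, had 45.7, 44.05 and 48.2 CPM against 59.8, 62.3 and 58.5 CPM and rose 1.31-fold (adjusted p = 7.87e-10). Atp5md had 86.7, 86.2 and 99.2 CPM against 114, 111 and 109 CPM and rose 1.23-fold. Atp5mpl and Atp5j2 rose 1.22-fold and 1.13-fold, whereas Atp5l, subunit g, went from 185 ± 5.16 to 185 ± 3.54 CPM (adjusted p = 0.991). In the peripheral stalk, which keeps the head from turning, Atp5pb and Atp5j rose 1.13-fold and 1.13-fold, and Atp5h and Atp5o did not pass (adjusted p = 0.142 and 0.303).

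**Figure D4:**
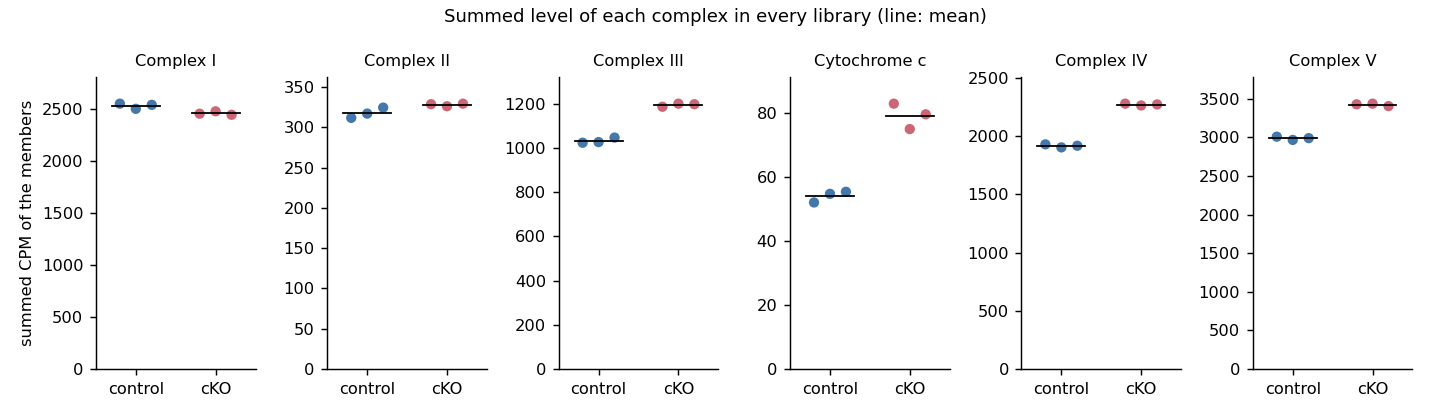
Summed CPM of the members of each complex (y axis, from 0) in the 3 control and 3 cKO-labelled libraries (points, with a line at each group mean); complex I holds the 37 subunit genes without assembly factors and copies, and complex IV holds the tissue isoforms, Cox7a2l, Ndufa4 and Ndufa4l2. Complexes II, III, IV and V and cytochrome c sum to more and complex I to less in every library labelled cKO than in any control library, and complex I overlaps when scaled by library totals in place of TMM.

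The 8 Ndufaf genes, which match the same name pattern, encode assembly factors that help build complex I and are absent from the finished enzyme. Among them 5 rose, 1 fell and 2 did not pass (median log2 fold change 0.42), where 30.8% of all genes tested were higher and 30.6% lower. Ndufaf4 and Ndufaf1 had the largest rises of all members. Ndufaf6 came next (log2 fold change 0.7855, SE 0.198), within its error level with the subunit gene Ndufa4 (0.7838, SE 0.0215). Ndufaf4 had 22.7, 24.9 and 25.1 CPM in the control libraries and 45.6, 48.8 and 46.1 CPM in the libraries labelled cKO. It rose 1.93-fold (log2 fold change 0.95, SE 0.0637, adjusted p = 3.14e-22). Ndufaf1, which acts on the membrane arm, had 8.58, 8.21 and 11.6 CPM in the control libraries and 18.1, 17.9 and 14.6 CPM in the libraries labelled cKO and rose 1.78-fold (log2 fold change 0.83, SE 0.114, adjusted p = 1.82e-09). Ndufaf6 was at a low level, with 2.75, 2.71 and 3.65 CPM against 5.37, 3.88 and 6.46 CPM, and rose 1.72-fold (adjusted p = 0.000433). Ndufaf2 had 12.5, 9.3 and 11.5 CPM against 15.1, 13.4 and 16.6 CPM and rose 1.35-fold. These 4 were named among members chosen for groups without overlap. Of the 8 Ndufaf genes 6 had no overlap, where 64.9% of all genes tested had none. Ndufaf5, which modifies Ndufs7, had overlapping groups (5.67, 4.52 and 4.98 CPM against 5.46, 6.99 and 7.5 CPM), and its call (adjusted p = 0.0301) was lost without any of control replicates 2 and 3 and cKO replicates 2 and 3 (adjusted p from 0.0624 to 0.151). Ndufaf3, known as a binding partner of Ndufaf4, had 11.03, 9.91 and 9.18 CPM against 6.67, 8.34 and 7.42 CPM and fell 1.34-fold (adjusted p = 0.00378), and Ndufaf7 and Ndufaf8 did not pass (adjusted p = 0.0911 and 0.727).

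Levels per gene length differed widely within each complex. In control skin, FPKM of the commonly expressed subunit genes ran from 15.9 (Ndufab1) to 231 (Ndufa6) in complex I, with a median of 67.8, and from 41.1 (Sdha) to 70.6 (Sdhb) in complex II. The range was 52.8 (Cyc1) to 284 (Uqcrh) in complex III, 26.1 (Cox5a) to 523 (Ndufa4) in complex IV and 44.2 (Atp5g1) to 315 (Atp5b) in complex V.

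Other nuclear genes of respiration were counted from lists of related functions. Their counts stand beside shares of 30.8% higher and 30.6% lower over all genes tested, and no list was tested against them. For complex IV assembly, 11 of 23 genes were higher and 2 lower (median log2 fold change 0.18). Coa7 rose 2.57-fold (from 5.81 ± 0.836 to 14.9 ± 0.426 CPM), Coa4 rose 2.24-fold and Higd1b 1.82-fold, both at low levels, while Coa8 fell 1.47-fold (from 28.97 ± 0.562 to 19.7 ± 0.50 CPM) and Higd2a 1.16-fold. Of 10 further complex I assembly genes 2 were higher and 1 lower. Tmem70, which also helps to build the ATP synthase, rose 1.54-fold, Dmac1 rose 1.25-fold, and Acad9 fell 1.34-fold (from 209 ± 6.28 to 156 ± 2.78 CPM). For complex III assembly 3 of 7 were higher (Lyrm7 at 2.05-fold, Bcs1l at 1.38-fold and Uqcc2 at 1.2-fold) and Ttc19 was lower (1.2-fold). Sdhaf2 (1.29-fold) was the only one of 4 complex II assembly genes that passed. Of 5 complex V assembly genes none passed by edgeR, DESeq2 or limma-voom, and none had an unadjusted p under 0.05 by edgeR.

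Of 21 genes for coenzyme Q synthesis and electron entry, 9 were lower and 5 higher (median log2 fold change -0.11). Coq8a, a kinase-like protein of coenzyme Q synthesis, fell 2.52-fold (from 25.1 ± 1.54 to 9.95 ± 1.31 CPM), and Coq6 and Coq8b fell 1.51-fold and 1.4-fold. Pdss1, which begins the side chain of coenzyme Q, rose 2.46-fold (from 6.88 ± 1.25 to 16.9 ± 0.528 CPM), and Gpd2, the mitochondrial glycerol phosphate dehydrogenase, rose 1.78-fold (from 15.2 ± 1.43 to 27.2 ± 1.74 CPM). Of 27 genes of the citric acid cycle and pyruvate entry, 11 were higher and 8 lower (median 0.01). Pdp2, a phosphatase that activates pyruvate dehydrogenase, rose 1.85-fold, Idh2 rose 1.43-fold and Dlat 1.2-fold. The pyruvate dehydrogenase kinase gene Pdk2 fell 1.75-fold, and the pyruvate carrier gene Mpc2 fell 1.62-fold (from 74.7 ± 2.33 to 46.1 ± 0.698 CPM).

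Mitochondrial import, chaperone and membrane genes had 14 of 26 higher and 2 lower (median 0.12). The chaperonin genes Hspd1 and Hspe1 rose 1.71-fold (from 135 ± 1.56 to 231 ± 5.05 CPM) and 1.52-fold, and prohibitin (Phb) rose 1.57-fold, while the cristae genes Chchd6 and Micos13 fell 1.54-fold and 1.37-fold. Of 14 tested genes for carriers, porins and uncoupling proteins, 7 were higher and 1 lower. The phosphate carrier gene Slc25a3 rose 1.2-fold (from 280.2 ± 9.73 to 337 ± 5.11 CPM), Slc25a13 rose 1.35-fold and Vdac3 1.2-fold, and Slc25a20, which carries fatty acids as carnitine esters, fell 1.47-fold. Among 25 regulators of mitochondrial biogenesis 7 were higher and 6 were lower (median -0.0037), no larger a share in either direction than over all genes. The coactivator genes Pprc1 and Ppargc1b rose 1.54-fold and 1.43-fold and Mterf4 rose 1.47-fold, whereas Ppara, a nuclear receptor for fatty acid oxidation, fell 3.43-fold (from 13.8 ± 0.484 to 4.01 ± 0.777 CPM) and Esrrg fell from 0.662 ± 0.298 to 0.183 ± 0.161 CPM. Of 5 genes known to regulate paralogous subunits in low oxygen or stress, 3 rose: Hif1a 1.75-fold (from 141 ± 4.78 to 246 ± 6.04 CPM), Epas1 1.3-fold and Chchd2 1.26-fold. The 13 listed subunits encoded by mitochondrial DNA had no match in the count table, so they were not analysed here.

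**Figure D5:**
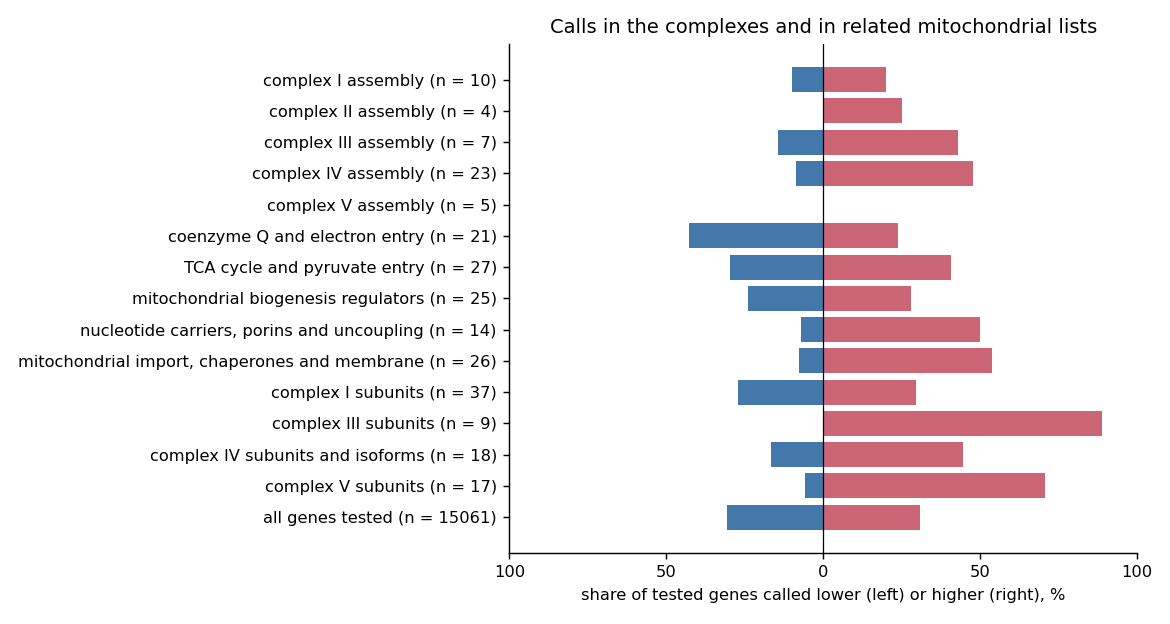
Share of tested genes called lower (left, blue) or higher (right, red), in percent on the x axis, for related mitochondrial lists, the subunits of complexes I, III, IV and V and all genes tested, with the number tested in brackets. Complex III (8 of 9) and complex V (12 of 17) have the longest bars to the right, and coenzyme Q and electron entry (9 of 21) the longest to the left.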

How the data were processed

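RNA was extracted with TRIzol and sequenced from 6 libraries of mouse tail skin, 3 per genotype in the labels. The submitters' processing notes name fastp, HISAT2, HTSeq and the mm39 genome. Annotation, strandedness and the handling of multiply aligned reads are not given in the labels, so a gene and an antisense partner cannot be told apart. The authors deposited whole, not normalized counts per gene and a table of FPKM for the same 18180 genes. The deposited FPKM served for comparisons per length and for alternatives. A whole-base length was inferred for each gene from the deposited counts and FPKM themselves. With it, counts per library total gave back every nonzero FPKM within a relative tolerance of 1e-06. Gene lengths from another source were not used in this check.

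Counts were fitted with edgeR 4.0.16 (quasi-likelihood test, robust, TMM scaling) in R 4.3.3 on the genes that passed filterByExpr (minimum count 10, minimum total 15), with p-values adjusted by Benjamini and Hochberg over all 15061 of them. The standard error was taken as the absolute log2 fold change over the square root of F, and fold changes in the text are those of the fit. The fit was tested on simulated data. Alternatives were DESeq2 1.42.0, limma 3.58.1 on log2(FPKM + 1) and log2(FPKM + 0.1) and with voom, other scalings, other filters, a replicate block, an assumed biological coefficient of variation, and each library left out. Library totals of 35855880 to 37043849 counts limit counting error only.

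Members were matched by symbol. Members and lists were chosen with earlier results of these data known. Among the 19 lists of related genes and cell type markers, 248 names matched by symbol and 21 did not. Values in every library are given for up to 5 called members per complex and direction, by size of change, without overlap and with a mean of at least 5 CPM. From each list up to 3 called genes in the more common direction and 2 in the other were named. Promoter sequences are from RefSeq (GRCm38.p6), another build than that of the counts, so no coordinates of the deposited genes are given. Replicate numbers did not pair the libraries. Values of 1 item are not reported here.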

Additional observations from a re-analysis of the deposited data

How the results depend on the processing

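Complex I, with 11 members higher and 10 lower, had 9 higher and 10 lower without control replicate 3 or without cKO replicate 3. It had 10 and 10 by DESeq2, 12 and 10 with library totals and 12 and 9 with upper-quartile factors. By limma it had 13 and 10 on log2(FPKM + 1) and 14 and 11 on log2(FPKM + 0.1). Which direction had more calls there changed with the setting. Over all members, between 44 and 47 members were higher and between 15 and 17 lower when each library was left out in turn, and the median log2 fold change stayed between 0.0971 and 0.1276. DESeq2 called 46 higher and 17 lower, limma-voom 47 and 17, limma on log2(FPKM + 1) 50 and 16, and library totals in place of TMM 48 and 15. With library totals the summed level of complex I, lower with TMM, overlapped between the groups. An assumed biological coefficient of variation of 20% moved the counts most. It left 4 members higher and 0 lower (by complex, 1 higher in IV, 3 higher among complex I assembly factors, and 0 in complexes I, II, III and V and cytochrome c), against 1830 genes higher and 1531 lower over all genes tested. The single lower member of complex V, Atp5c1, became 0 by limma on either FPKM scale, with library totals, with upper-quartile factors and at an adjusted p under 0.01, and the count was 0 to 1 when single libraries were left out. Complex I assembly factors had 2 lower members by limma on either FPKM scale, and the copies of complex I genes had 1 higher by limma on log2(FPKM + 0.1) and 0 to 1 when single libraries were left out. The cause of these changes was not tested. Same-numbered libraries deviated together no more than others (correlations of -0.0154, -0.0155 and -0.0577), so the numbers were not taken as pairs. A fit with the replicate number as a block called 46 higher and 17 lower, and Ndufa9 was lost (adjusted p = 0.0506). Counting depth limits the muscle, lung and testis isoforms, where log2 fold changes from -0.36 to 0.59 did not pass, and the gene copies, where a log2 fold change of 0.60 (Ndufab1-ps) did not.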
